A study of Mus musculus with 6 samples.

Results

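C-type lectin receptors outside the Cd209 family, among them the mannose receptor and the Clec4 cluster, were followed through the cells of the CD169 lineage in mouse lymph nodes. The genes were fixed by name: the mannose receptor gene Mrc1, the galactose-type lectin genes Mgl2 and Clec10a, the cluster members Clec4a2, Clec4d, Clec4e and Clec4n, and Clec9a, Clec12a and Clec7a. Of these 10 genes, 9 matched a row among the 32287 features of the gene matrix. Clec7a, which encodes Dectin-1, was not analysed here. Levels were compared across 12 macrophage, monocyte and dendritic cell types and between immunized and unimmunized mice.

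All 4 mice carried Cre at the Cd169 (Siglec1) locus and a Cre-activated tdTomato reporter, so the red label marked a history of Cd169 expression and not current CD169 protein. The 2 control mice were unimmunized, and the 2 others had been immunized with hen egg lysozyme 9 days earlier. The study's methods describe its immunization as lysozyme coupled to an ovalbumin peptide in Sigma Adjuvant System, given under the skin to recipients of transferred lymphocytes. Whether the mice sequenced here also received cells is not given in those methods. Per the methods of the study, its mice were over 6 weeks of age and of both sexes. The sex of each mouse sequenced here is not given there. Tomato-positive cells with high CD11b were sorted from their lymph nodes, tagged with 1 hashtag antibody per mouse, pooled, and split over 2 droplet captures read for mRNA, surface antibodies and hashtags. Of 18662 barcodes, 12139 cells were kept. They comprised 2828 and 537 cells of unimmunized mice 1 and 2, and 4052 and 4722 cells of immunized mice 1 and 2, with a median of 5877, 6280, 9674 and 12727.5 unique molecular identifiers (UMIs) per cell. The cells of immunized mice thus held more UMIs, and unimmunized mouse 2 gave the fewest cells, though not in every type. Another 1242 cells were left out because their 621 barcode sequences occurred in both captures.

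C-type lectin receptors fold around a carbohydrate recognition domain, although several bind proteins or lipids instead of sugars. The mannose receptor and the galactose-type lectins are endocytic receptors of macrophages and dendritic cells. Clec4d (MCL), Clec4e (Mincle) and Clec4n (Dectin-2) pair with the Fc receptor gamma chain (Fcer1g) and activate Syk and Card9, whereas Clec4a2 (DCIR) and Clec12a (MICL) carry an inhibitory motif that recruits phosphatases. Clec9a (DNGR-1) detects actin filaments of dead cells and is known as a marker of cross-presenting type 1 dendritic cells.

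Short coding motifs are shown here because they mark the sugar-binding and signalling classes of these receptors. In mannose-type lectins the calcium site holds the residues Glu-Pro-Asn, and in galactose-type lectins Gln-Pro-Asp. The codons of these residues are in capitals in the following coding sequences of GENCODE transcripts on GRCm38, read 5′ to 3′:
Mrc1: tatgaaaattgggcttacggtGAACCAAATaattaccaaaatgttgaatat
Clec4n: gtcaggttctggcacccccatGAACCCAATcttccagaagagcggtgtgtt
Clec4e: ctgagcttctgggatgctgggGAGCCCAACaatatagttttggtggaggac
Mgl2: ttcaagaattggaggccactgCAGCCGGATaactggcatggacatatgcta
Clec10a: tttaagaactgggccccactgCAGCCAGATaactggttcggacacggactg
The Mrc1 stretch lies in exon 15 of 30 at chr2:14294806-14294856 on the plus strand, and is 1 of 3 Glu-Pro-Asn motifs of that receptor. The others are spliced across 2 exons. They lie at chr6:123244589-123246486 on the plus strand (Clec4n, exons 5 and 6 of 6), chr6:123283651-123285473 on the minus strand (Clec4e, exons 5 and 6 of 6), chr11:70136772-70136966 on the plus strand (Mgl2, exons 9 and 10 of 10) and chr11:70170262-70170463 on the plus strand (Clec10a, exons 9 and 10 of 10). No such motif was found in the coding sequence of Clec4d.

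The signalling motifs of 3 further members lie at the very start of their coding sequences, in the part that encodes the cytoplasmic tail. Capitals mark the 6 codons of the inhibitory motif around a tyrosine in Clec4a2 and Clec12a, and the 4 codons of the single activating tyrosine motif in Clec9a:
Clec4a2: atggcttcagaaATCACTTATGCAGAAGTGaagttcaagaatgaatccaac
Clec12a: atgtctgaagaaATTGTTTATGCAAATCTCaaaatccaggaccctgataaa
Clec9a: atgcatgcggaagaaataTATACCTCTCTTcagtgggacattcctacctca
All 3 stretches lie in exon 1 of 6 on the plus strand of chromosome 6, at chr6:123123588-123123638, chr6:129350421-129350471 and chr6:129408955-129409005. These patterns do not separate all members, since the inhibitory pattern also matched near the start of Clec4n, and the shorter tyrosine pattern near the starts of Clec10a and Clec12a.

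The genes themselves fall into 3 clusters and 1 isolated locus. Clec4a2 (chr6:123106428-123143999), Clec4n (chr6:123229843-123247021), Clec4d (chr6:123262111-123275265) and Clec4e (chr6:123281789-123289870) lie within 183 kb. Clec12a (chr6:129342691-129365303) and Clec9a (chr6:129408862-129424763) are neighbours further along chromosome 6. Mgl2 (chr11:70130329-70137550) and Clec10a (chr11:70156197-70170834) lie within 40.5 kb, and Mrc1 (chr2:14229392-14332057) lies alone. Mgl2 and Clec10a are near copies: 835 of 912 aligned coding bases (91.6%) were the same, and 242 stretches of 50 bases occurred in the transcripts of both. A read that lies wholly within a shared stretch cannot be assigned to 1 gene, so the values of this pair may be less certain than the others. How many reads this affects was not tested.

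Cell types were gated on marker genes, none of which is one of the lectins. The 12 types held 4913 cells: 355 MSM-like (medullary sinus macrophage), 655 cells with Pla2g2d or Il22ra2 that were left without a cell type name, 428 TBM-like (tingible body macrophage), 1107 other C1q macrophages, 321 inflammatory macrophage-like, 205 moIFN-like (interferon-activated monocyte), 724 classical and 373 nonclassical monocyte-like, 87 moDC-like (monocyte-derived dendritic cell), 228 cDC2-like, 132 cDC1-like (conventional dendritic cells of types 2 and 1) and 298 migratory DC-like cells. Another 4343 cells passed no gate and 908 passed several. The MSM marker list included Pla2g2d and Il22ra2 and was split after the cells were seen. The MSM-like gate used the other markers of that list. The TBM marker list summed to a median of 584 CPM in TBM-like and 836 in MSM-like libraries. The moDC list summed to 1600 CPM in moDC-like and 1712 in classical monocyte-like libraries. These lists alone thus do not set the types they name apart from those neighbours. The sort also held 1671 T/NK cell-like and 281 B cell-like cells, which should lack most of these receptors and served as the background for free RNA. The median of 1811 UMIs per MSM-like cell was 30.8% of the lowest mouse median. Among the 10 genes that led this type were Cd209b, Marco and Timd4. Its gate selected on these genes, so their lead is no separate evidence for the name. The inflammatory macrophage-like cells came from immunized mice apart from 1 cell, and their 10 leading genes held 2 of their own markers (Nos2, Acod1) and 2 neutrophil markers (S100a8, S100a9).

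For each mouse and type with at least 10 cells the UMIs were summed, and levels are given as CPM, a gene's UMIs per 1000000 UMIs of that sum. A group of types or mice was compared in 1 edgeR quasi-likelihood fit over 50 such libraries and 11032 genes, with p-values adjusted over all genes of a comparison and a gene called at 0.05. On the log2 scale, each type was compared with a mean of other types in which every type counted equally. Inflammatory macrophage-like cells, which had no unimmunized library of at least 10 cells, were compared in immunized mice only. For all other types they were left out of the mean. Where a lectin had no UMI in a whole group of this mean, the fitted fold depends on a small constant that edgeR adds. For those comparisons levels are given, or the difference of log2(CPM + 5) from limma, which was added after the data were seen.

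**Figure D1:**
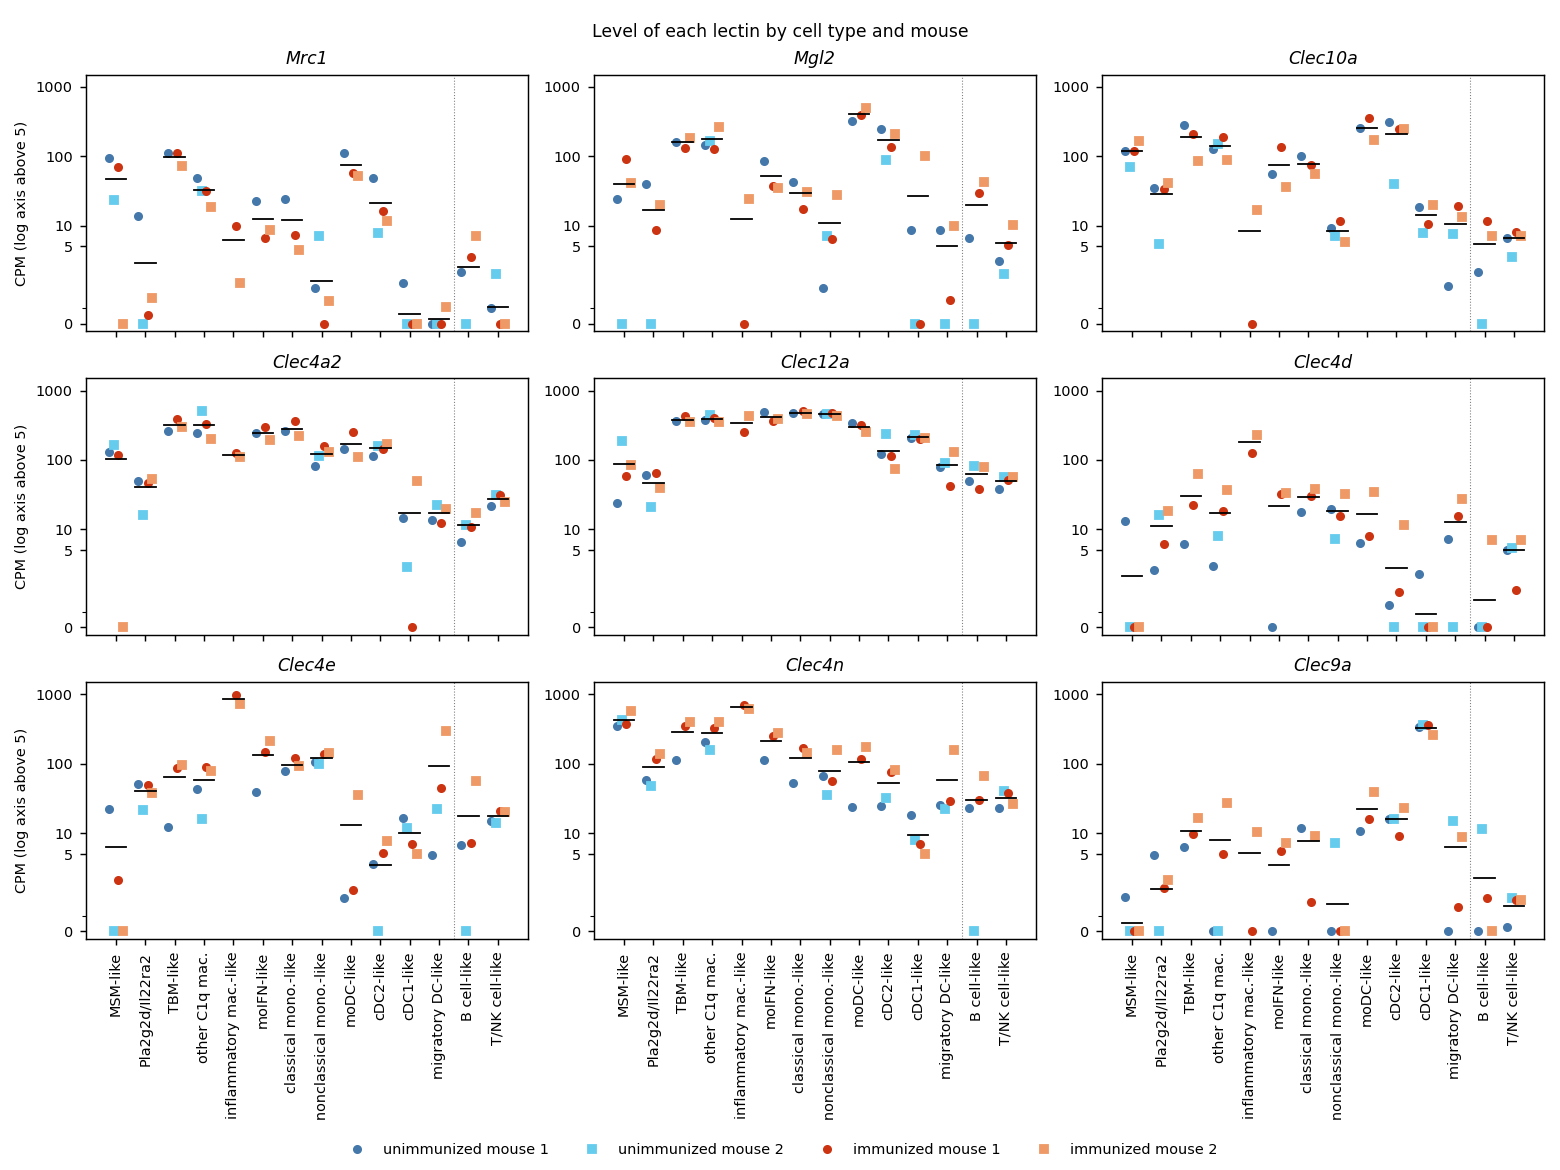
Level of each of the 9 lectins (CPM, log axis above 5) in each cell type, with 1 point per mouse with at least 10 cells, unimmunized mice in blue and immunized mice in red, and a line at the mean. Clec9a stands high in cDC1-like cells alone (259 to 359 CPM), Clec4d and Clec4e in inflammatory macrophage-like cells, and Mgl2 in moDC-like cells.

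The number of lectins called varied with the type. In other C1q macrophages 6 of the 9 were higher than in the mean of the other types and none was lower, against 3.91% of all genes called in that comparison. In TBM-like cells 5 were higher (2.93% of all genes), and in moDC-like cells 3 were higher (2.79%). Inflammatory macrophage-like cells had 4 higher and 1 lower (11.5%). Classical monocyte-like cells had 3 higher (7.75%), nonclassical monocyte-like cells 3 higher and 2 lower (18.2%), and moIFN-like cells 2 higher (5.38%).

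Other types held lower lectins. In migratory DC-like cells 5 of the 9 lectins were lower and none was higher, against 35.8% of all genes called. In cDC1-like cells 1 was higher and 4 were lower (25.2%), in cDC2-like cells 3 were higher and 3 lower (21.8%), in MSM-like cells 2 were higher and 1 lower (26.1%), and in the Pla2g2d/Il22ra2 cells 1 was higher and 2 were lower (38.4%). For MSM-like, Pla2g2d/Il22ra2 and migratory DC-like cells, so large a share of all genes was called that these counts say little about the lectins. The median log2 difference over the lectins was 1.51 in TBM-like cells and -1.34 in migratory DC-like cells, where the medians of all genes were -0.04 and 0.02.

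Over the types, the fixed pairs of types and immunization, 68 calls were made, of which 18 were also made under every one of the alternatives that could be fitted. These were the calls of Mrc1 in TBM-like, of Mrc1, Mgl2 and Clec10a in moDC-like, of Mgl2 in cDC2-like, of Clec4n in MSM-like, of Clec9a and Clec4n in cDC1-like, of Clec12a in classical monocyte-like, moIFN-like and Pla2g2d/Il22ra2 cells, and of Clec12a and Clec4e in nonclassical monocyte-like cells. The others were 5 differences between pairs of types. Clec4a2 and Clec12a differed between TBM-like and MSM-like, Clec9a and Clec4a2 between cDC1-like and cDC2-like, and Clec10a between classical and nonclassical monocyte-like cells. When types were taken from Leiden clusters, no cluster was named TBM-like, so the TBM-like calls were not checked under that alternative. With unimmunized mouse 1 left out, TBM-like, moIFN-like, classical monocyte-like and moDC-like cells had no unimmunized library of at least 10 cells. These types then left the mean of the other types and were compared in immunized mice only. A call lost in that fit thus need not refer to the same comparison. Without unimmunized mouse 1, which gave most unimmunized cells, 27 of the 60 calls that could still be fitted were lost, compared with 7 without unimmunized mouse 2, 8 without immunized mouse 1 and 5 without immunized mouse 2, each of 68.

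**Figure D2:**
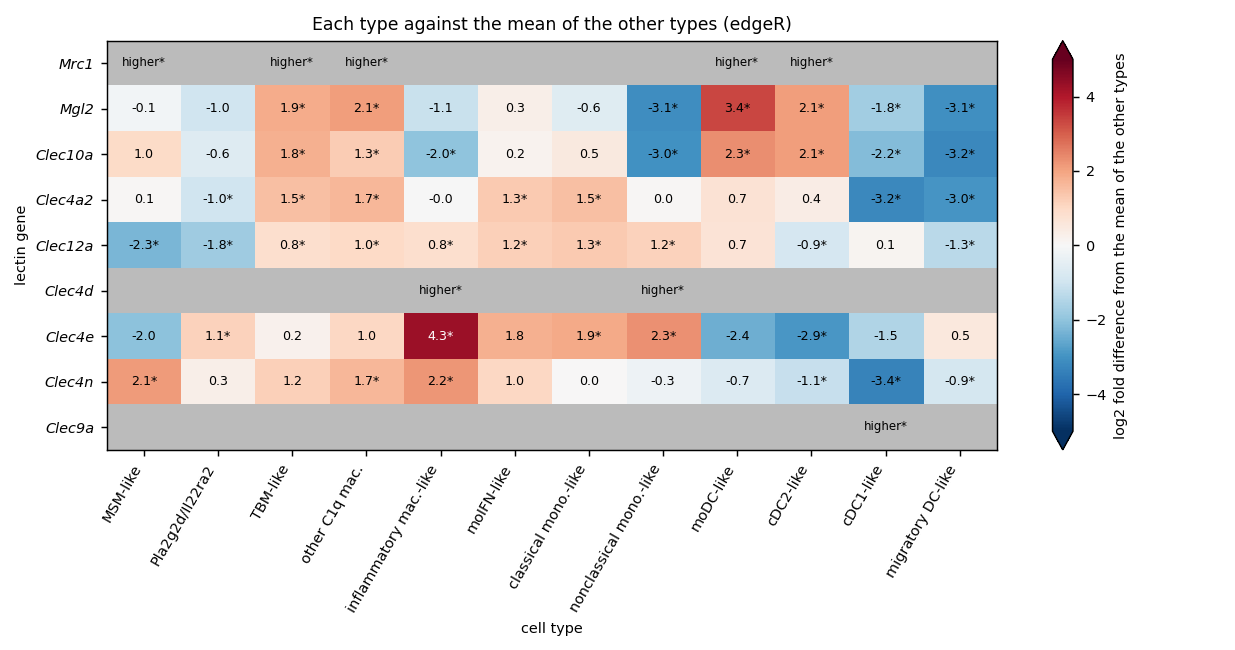
Log2 fold difference of each lectin (rows) in each of the 12 types (columns) from the mean of the other types by edgeR, red higher and blue lower, with an asterisk at an adjusted p under 0.05. Inflammatory macrophage-like cells were not part of the mean for the other types. Grey cells had a group without UMIs, so that only a call and its direction are shown. Other C1q macrophages and TBM-like cells hold 6 and 5 higher lectins and no lower one (3.91% and 2.93% of all genes called). Migratory DC-like cells hold 5 lower ones, where 35.8% of all genes were called.

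Mrc1, the endocytic mannose receptor CD206, was highest in TBM-like and moDC-like cells. In TBM-like cells it had 112 CPM in unimmunized mouse 1, and 113 and 71.1 in immunized mice 1 and 2, a mean of 98.7 ± 23.9 (SD, n = 3 mice). In moDC-like cells it had 111, 56.5 and 52.6 CPM in the same mice. In MSM-like cells it had 93.0 and 23.4 CPM in unimmunized mice, and 69.2 and 0 in immunized mice. The last was 0 of 23978 UMIs, which allows up to 125 CPM (3 UMIs), so this mouse was not shown to differ from the others. The ranges of these 3 types overlapped, and those of the next type, other C1q macrophages (18.7 to 48.1 CPM in 4 mice), overlapped with the MSM-like range.

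At the other end Mrc1 was at background. In cDC1-like cells it had 2.62 CPM in unimmunized mouse 1 and none in the 3 other mice, which allows up to 11.8, 5.31 and 15 CPM, and in migratory DC-like cells 1 UMI was found in 1 of 4 mice. T/NK cell-like cells had up to 3.23 CPM. The edgeR test called Mrc1 higher in TBM-like (adjusted p = 1.3e-07), moDC-like (2.7e-08), MSM-like (9.6e-08), other C1q macrophage (0.0023) and cDC2-like cells (0.0037). On log2(CPM + 5) the difference was 2.63 in TBM-like and 2.39 in moDC-like cells, but 0.73 ± 0.42 (SE) in MSM-like and 0.21 in cDC2-like cells, where it was not called. The MSM-like call also turned direction without immunized mouse 1, to -1.54, when the remaining immunized MSM-like library had no Mrc1 UMI.

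Mgl2 and Clec10a, the CD301 galactose-type lectins, shared much of their distribution. Mgl2 was highest in moDC-like cells, with 319 CPM in unimmunized mouse 1 and 390 and 496 in immunized mice (402 ± 88.7, SD, n = 3 mice). Those values lay above every library of any other type, the next being other C1q macrophages at 126 to 262 CPM, cDC2-like cells at 87.2 to 249 and TBM-like cells at 132 to 180. The log2 fold difference of moDC-like cells from the other types was 3.35 ± 0.29 (SE, edgeR adjusted p = 3.5e-11). Other C1q macrophages (2.09), cDC2-like (2.10) and TBM-like cells (1.86) were also called higher.

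Clec10a had 253, 350 and 171 CPM in moDC-like cells, and 313, 39.6, 243 and 244 in cDC2-like cells, of which unimmunized mouse 2 (12 cells) gave the low value. The 7 types from moDC-like down to moIFN-like cells each overlapped with the next in order, so no type stood apart at the top. Clec10a was called higher in moDC-like (log2 difference 2.33), cDC2-like (2.09), TBM-like (1.76) and other C1q macrophage cells (1.27). MSM-like cells had 70.2 to 167 CPM of Clec10a, and the difference there did not pass the test.

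Both galactose-type lectins were called lower in 3 types. Nonclassical monocyte-like cells had 5.82 to 11.5 CPM of Clec10a, and the log2 difference was -3.03 for Clec10a and -3.11 for Mgl2. Migratory DC-like cells had -3.23 for Clec10a and -3.07 for Mgl2, and cDC1-like cells -2.17 and -1.75. In cDC1-like cells the mice differed, since Mgl2 had 99.8 CPM in immunized mouse 2 (11 cells) and at most 8.72 in the 3 others. Inflammatory macrophage-like cells had similarly low means of both (8.35 CPM of Clec10a and 12.2 of Mgl2), but only Clec10a was called (-2.01), with 0 CPM in immunized mouse 1, which allows up to 29.4, and 16.7 in immunized mouse 2. Mgl2 in nonclassical monocyte-like cells turned to 0.53, and was not called, without unimmunized mouse 1. That fit also had fewer types in the mean of the others.

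Clec4a2, the inhibitory receptor DCIR, was spread over macrophages and monocytes. It had 248, 516, 334 and 198 CPM in other C1q macrophages of unimmunized mice 1 and 2 and immunized mice 1 and 2. TBM-like cells had 262, 392 and 298 CPM and classical monocyte-like cells 262, 359 and 225 in the 3 mice with enough cells. These 3 types and moIFN-like cells (192 to 296 CPM) overlapped and were all called higher, by log2 differences of 1.66 ± 0.20, 1.51 ± 0.28, 1.52 ± 0.24 and 1.31 ± 0.28 (SE). It was lower in cDC1-like cells (log2 difference -3.22, with 0 to 49.9 CPM) and migratory DC-like cells (-2.97, with 12.4 to 22.7 CPM), at about the level of T/NK cell-like cells (21.6 to 31.7 CPM), and in the Pla2g2d/Il22ra2 cells (-0.98).

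Clec12a, the inhibitory receptor MICL that senses uric acid crystals, was found in all 12 types, at mean levels from 46.5 to 479 CPM. Nonclassical monocyte-like cells had 460, 453, 473 and 434 CPM, and classical monocyte-like cells 468, 510 and 459. From classical monocyte-like down to moDC-like cells, 7 types each overlapped with the next. A step followed to cDC1-like cells, whose 4 mice had 208, 233, 204 and 209 CPM, all below the lowest moDC-like library (250). MSM-like cells (88.6 ± 70.1), migratory DC-like cells (86.0 ± 36.8) and Pla2g2d/Il22ra2 cells (46.5 ± 20, SD, n = 4 mice each) were at the bottom, and the last overlapped with T/NK cell-like cells (37.6 to 56.2 CPM).

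By edgeR, Clec12a was higher in classical (log2 difference 1.32, adjusted p = 4.1e-06) and nonclassical monocyte-like (1.17, 6e-07), moIFN-like (1.18), other C1q macrophage (0.98), inflammatory macrophage-like (0.83) and TBM-like cells (0.82). It was lower in MSM-like (-2.28), Pla2g2d/Il22ra2 (-1.80), migratory DC-like (-1.34) and cDC2-like cells (-0.85). Clec12a passed the test in 10 of the 12 types, more than any other of the 9 lectins.

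Clec4e (Mincle, a receptor for mycobacterial glycolipids and for a protein released by dead cells) was highest in inflammatory macrophage-like cells. It had 980 CPM in immunized mouse 1 (10 cells) and 725 in immunized mouse 2 (310 cells). The next libraries lay far lower: migratory DC-like cells of immunized mouse 2 at 296 CPM, moIFN-like cells at 39.2, 149 and 216, nonclassical monocyte-like cells at 106, 101, 138 and 144, and classical monocyte-like cells at 77.6, 122 and 91.8. The log2 difference of inflammatory macrophage-like cells was 4.30 ± 0.28 (SE, edgeR adjusted p = 1.1e-15, immunized mice only). Nonclassical (2.29) and classical monocyte-like cells (1.90) and Pla2g2d/Il22ra2 cells (1.15) were also called higher, and cDC2-like cells, with 0 to 7.75 CPM, were lower (-2.89). The Pla2g2d/Il22ra2 libraries, at 21.4 to 51.7 CPM, lay within the range of the B cell-like background (0 to 55.9 CPM), and that call was made in 12 of 19 alternatives.

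Clec4d (MCL), the neighbour and partner receptor of Mincle, followed it at lower levels. Inflammatory macrophage-like cells had 127 and 232 CPM, and no library of another type in the fit exceeded 63.3. The edgeR adjusted p was 9.2e-14, and the difference of log2(CPM + 5) was 3.10. Nonclassical monocyte-like cells, with 19.7, 7.18, 15.8 and 32.0 CPM, were also called higher by edgeR (adjusted p = 0.020), but not by limma (0.29). In MSM-like cells Clec4d had 13.3 CPM in unimmunized mouse 1 and none in the 3 other mice, although 0 allows up to 70.2 and 125 CPM in the 2 small libraries. In cDC1-like cells it had 3.49 CPM in unimmunized mouse 1 and none in the 3 others, where 0 allows up to 15 CPM.

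Neutrophil transcripts were seen beside the inflammatory macrophage-like values. The 17 neutrophil-like cells, too few to be fitted, had 451, 0, 509 and 437 CPM of Clec4e and 709, 0, 224 and 374 of Clec4d in the 4 mice. In inflammatory macrophage-like cells the 6 neutrophil markers summed to 1714 CPM in immunized mouse 1, with 2 of the 6 detected, and to 37.9 in immunized mouse 2, with 5 detected. The cells without any UMI of a neutrophil marker (5 and 216 cells) had 1457 and 706 CPM of Clec4e, 57.5 and 194 of Clec4d, and 748 and 585 of Clec4n. With types taken from Leiden clusters the log2 differences were -2.44 for Clec4e, -1.21 for Clec4d, -0.32 for Clec4n and -0.02 for Clec12a, none of them called. The Leiden type of that name held 197 of the 321 gated cells among its 738 and added a library of 12 unimmunized cells with 24249 UMIs in all. Its comparison thus averaged both conditions with equal weight, whereas the gated comparison used immunized mice only.

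The 250 bases before the transcription starts of the neighbours Clec4d and Clec4e are shown because both genes were called higher in inflammatory macrophage-like cells. They are RefSeq promoter sequences on GRCm38.p6, with matches on either strand to GAGGAA (a PU.1 core) and TTGCNNAA (a C/EBP core) in capitals:
Clec4d: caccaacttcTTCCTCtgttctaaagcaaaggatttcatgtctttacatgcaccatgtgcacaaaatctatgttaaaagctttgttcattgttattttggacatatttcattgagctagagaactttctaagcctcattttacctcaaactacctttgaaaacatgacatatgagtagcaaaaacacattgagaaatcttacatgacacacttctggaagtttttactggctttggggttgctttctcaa
Clec4e: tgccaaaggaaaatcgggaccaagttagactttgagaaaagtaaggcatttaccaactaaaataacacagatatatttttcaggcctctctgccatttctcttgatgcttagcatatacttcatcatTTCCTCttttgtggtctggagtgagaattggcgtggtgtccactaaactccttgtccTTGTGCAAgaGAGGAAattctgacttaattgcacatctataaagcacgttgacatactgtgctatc
The Clec4d window is chr6:123261857-123262106 on the plus strand and the Clec4e window chr6:123289872-123290121 on the minus strand. Clec4d held 1 GAGGAA match, and Clec4e held 2 and 1 TTGCNNAA match, which do not overlap. Of 32851 promoters of this length, 23.3% held GAGGAA and 9.56% held TTGCNNAA. Neither window held TGANTCA, an AP-1 core (6.75% of promoters), an NF-kB core of GGGA and CC with 4 bases between them (17.6%), or an interferon response element of GAAA repeated after 2 bases (2.98%).

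Clec4n (Dectin-2, a receptor for fungal mannans) was highest in inflammatory macrophage-like and MSM-like cells. Inflammatory macrophage-like cells had 705 and 607 CPM in immunized mice 1 and 2. MSM-like cells had 346, 421, 372 and 584 CPM (431 ± 107, SD, n = 4 mice). TBM-like (112, 351 and 397 CPM) and other C1q macrophage cells (208, 159, 332 and 397) came next, overlapping with MSM-like cells. The edgeR log2 differences were 2.20 ± 0.25 in inflammatory macrophage-like (immunized mice only), 2.12 ± 0.24 in MSM-like and 1.67 ± 0.24 in other C1q macrophage cells (SE, adjusted p = 7.8e-09, 2.5e-09 and 6.7e-06).

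Clec4n was called lower in 3 dendritic types. In cDC1-like cells it had 18.3, 7.88, 7.08 and 4.99 CPM, below the T/NK cell-like range of 22.8 to 40.9 and within the B cell-like range of 0 to 66.4. The moDC-like cells, with 23.6, 118 and 175 CPM, were not called. The log2 difference was -3.35 in cDC1-like, -1.14 in cDC2-like and -0.90 in migratory DC-like cells. The last call was not stable: it turned to 0.38 in capture 2 alone and was lost without unimmunized mouse 1 or 2 or immunized mouse 1.

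Clec9a was high in a single type. In cDC1-like cells it had 344, 359, 358 and 259 CPM in unimmunized mice 1 and 2 and immunized mice 1 and 2 (330 ± 47.6, SD, n = 4 mice). The highest library of any other type in the fit had 39.5 CPM, in moDC-like cells of immunized mouse 2 (14 cells). Ranges were 9.19 to 23.2 CPM in cDC2-like, 6.24 to 16.7 in TBM-like and 0 to 27.4 in other C1q macrophage cells. T/NK cell-like cells had 0.292 to 2.15 CPM. The edgeR adjusted p was 2.2e-22, and the difference of log2(CPM + 5) was 5.07. The cDC1-like gate did not use Clec9a, and the gene was among the 10 that led the type.

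Shares of cells with a UMI were set side by side after each cell was thinned to 1000 UMIs, which left out 7 MSM-like cells. A Clec9a UMI was then seen in 27.3% of cDC1-like and 0.0598% of T/NK cell-like cells, against 93.9% of cDC1-like and 20.1% of other C1q macrophage cells before thinning. Clec4e was seen in 36.8% and Clec4n in 41.1% of inflammatory macrophage-like cells, and Clec4n in 32.5% of MSM-like cells, against 1.20% and 2.57% of T/NK cell-like cells. Mgl2 and Clec10a were each seen in 20.7% of moDC-like cells and in 0.419% and 0.479% of T/NK cell-like cells. Mrc1 was seen in 9.20% of moDC-like, 8.64% of TBM-like and 7.47% of MSM-like cells, and in 0.180% of T/NK cell-like cells. These shares pool the cells of all mice and do not show the spread between mice. Of the 321 inflammatory macrophage-like cells, 310 came from immunized mouse 2.

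**Figure D3:**
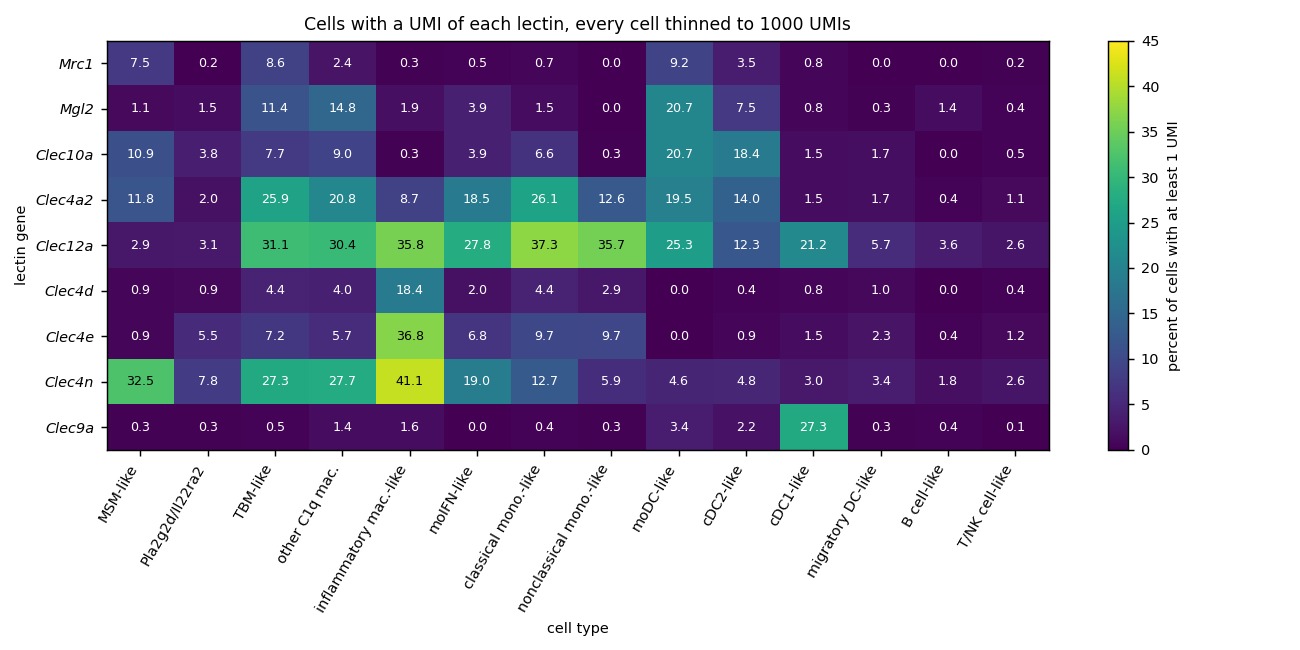
Percent of cells with at least 1 UMI of each lectin (rows) in each cell type (columns) after thinning every cell to 1000 UMIs, all mice together. Clec12a is spread widely, at 37.3% of classical monocyte-like cells, while Clec9a reaches 27.3% of cDC1-like cells and at most 3.45% of any other type.

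Within a type the lectins were found together in some cells. At 2000 UMIs per cell, 19 of 68 TBM-like cells with Mrc1 also had Mgl2 (27.9%), compared with 57 of 360 without Mrc1 (15.8%). In other C1q macrophages the same shares were 35% (21 of 60) and 20.6% (215 of 1042). A Clec4n UMI was found in 60.4% of other C1q macrophages with Clec4e and in 41.4% of those without. In moDC-like cells, Clec10a was found in 36.7% of cells with Mgl2 and 38.2% of cells without. Cells of 1 mouse are not replicates, and these shares were not tested.

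Neighbouring types were compared directly. Of the 9 lectins, 3 were higher in TBM-like than in MSM-like cells and none was lower, against 15.6% of all genes called. Clec12a differed most (log2 difference 2.82 ± 0.39, SE, edgeR adjusted p = 1.3e-06), followed by Mgl2 (1.82) and Clec4a2 (1.31). Mrc1 differed by 0.43 ± 0.40 and Clec4n by -0.86 ± 0.39, which did not pass the test.

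Classical monocyte-like cells were higher than nonclassical ones in 3 lectins (3.28% of all genes called): Clec10a by 3.19 ± 0.58 (SE, edgeR adjusted p = 0.00028), Mrc1 by 3.27 ± 0.84 and Clec4a2 by 1.34 ± 0.32 on the log2 scale. Clec12a differed by 0.14 ± 0.26 and Clec4e by -0.35 ± 0.40. The monocyte Mrc1 difference rested on 4.77 to 23.9 CPM against 0 to 7.18, and was lost without immunized mouse 1.

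Of the 9 lectins 2 were higher in moDC-like than in cDC2-like cells (1.95% of all genes called), Mrc1 by 1.73 ± 0.38 and Clec12a by 1.38 ± 0.29 on the log2 scale (SE, edgeR adjusted p = 0.0076 and 0.0049). Mgl2 differed by 1.14 ± 0.36, with 319 to 496 CPM against 87.2 to 249 and no overlap, which did not pass the edgeR test (adjusted p = 0.099), and Clec10a by 0.22 ± 0.35. The Mrc1 difference was called in 9 of 18 alternatives, and was -0.68 and not called when types were taken from Leiden clusters. The gates asked for a Flt3 UMI in cDC2-like cells and for none in moDC-like cells. The cDC2 marker list had similar medians in both, 1069 CPM in moDC-like and 1144 in cDC2-like libraries. How far missed Flt3 UMIs mixed these types was not tested.

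Both conventional dendritic types were separated by most of the lectins, since 2 were higher and 5 lower in cDC1-like than in cDC2-like cells (12.4% of all genes called). Clec9a was higher by 4.73 ± 0.42 and Clec12a by 0.88 ± 0.28, a Clec12a call made in 8 of 19 alternatives. Clec10a (-3.87 ± 0.47), Mgl2 (-3.50 ± 0.52), Clec4a2 (-3.25 ± 0.44) and Clec4n (-2.01 ± 0.58) were lower on the log2 scale (SE, edgeR adjusted p = 3.3e-08, 1.9e-06, 3.2e-07 and 0.015). Mrc1 was lower as well, with 7.93 to 48.0 CPM in cDC2-like cells and up to 2.62 in cDC1-like cells. Without unimmunized mouse 1 the Clec12a, Clec10a, Mgl2, Clec4n and Mrc1 calls of this pair were lost, while those of Clec9a and Clec4a2 were kept.

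The effect of immunization could be tested in the 7 types with libraries from all 4 mice, 2 mice against 2, with the spread taken from the whole fit. None of the 9 lectins was called in MSM-like cells (0.00906% of all genes called), Pla2g2d/Il22ra2 cells (0.245%), other C1q macrophages (0.0635%), nonclassical monocyte-like (0.0181%), cDC2-like (0.0272%) or cDC1-like cells (0% of all genes). At an unadjusted p under 0.05 there were 1, 2, 4, 0, 2 and 0 lectins in these types, and DESeq2 called 0 in each. Over the 7 types, 1 of 63 tests was called, and 6 of 63 without the filter on low counts. The share of all genes called without that filter is not given here. Over all genes in cDC1-like cells, 492 had an unadjusted p under 0.05 and DESeq2 called 0.

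In migratory DC-like cells 1 lectin, Clec4e, was called (0.254% of all genes). It had 4.93 and 22.7 CPM in unimmunized mice, and 45.6 and 296 in immunized mice, without overlap. The log2 difference was 4.45 ± 0.76 (SE, edgeR adjusted p = 0.0017), and neither DESeq2 nor limma called it. It was also lost without unimmunized mouse 1 or 2. The reads came from few cells: 268 UMIs in 12 of 71 cells of immunized mouse 2, with 97 in 1 cell, and 59 UMIs in 10 of 139 cells of immunized mouse 1, with 41 in 1 cell. Unimmunized mice had 4 UMIs in 4 of 75 cells and 3 in 1 of 13. The 5 inflammatory macrophage markers summed to 96.0 CPM in migratory DC-like cells of immunized mouse 2, and to 10.0, 6.16 and 0 in immunized mouse 1 and the unimmunized mice. Their part in the Clec4e difference was not tested.

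Averaged over the 7 types, Clec4n was the lectin that rose (4.78% of all genes called), by 0.89 ± 0.27 on the log2 scale (SE, edgeR adjusted p = 0.047). The fit took the types of a mouse as independent, so this SE and p-value do not measure the spread between mice. Clec4n had 332 and 397 CPM in other C1q macrophages of immunized mice against 208 and 159 in those of unimmunized mice. The Pla2g2d/Il22ra2 cells had 118 and 140 against 57.9 and 48.1, and cDC2-like cells 77.0 and 81.3 against 24.7 and 31.7. TBM-like (351 and 397 against 112 and 196) and moIFN-like cells (252 and 282 against 112 and 73.1) showed the same order, with fewer than 10 cells in unimmunized mouse 2. MSM-like cells overlapped, with 372 and 584 against 346 and 421, as did nonclassical monocyte-like cells, with 57.5 and 159 against 67.1 and 35.9. Migratory DC-like cells had 29.3 and 157 against 25.9 and 22.7. In cDC1-like cells the order was the opposite, with 7.08 and 4.99 CPM in immunized against 18.3 and 7.88 in unimmunized mice. T/NK cell-like cells, with 38.6 and 26.5 against 22.8 and 40.9, overlapped too.

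The Clec4n call lay close to the threshold. It was lost under 8 of 19 alternatives: with the mouse as a block, with RLE size factors, with at most 10% mitochondrial UMIs, with at least 20 cells per library, with 1 more marker UMI in each gate, in either capture alone and without unimmunized mouse 1. With the mouse as a block, the immunization difference referred to mouse 1 of each condition. That loss thus does not test immunization over both mice. With at least 20 cells, and in each capture alone, only 2 types could be averaged. The Clec4n call was kept with DESeq2 and with limma, and the log2 value ran from 0.62 to 1.71. No lectin passed the test of whether the immunization change differed between types (0.0272% of all genes called, 1 lectin at an unadjusted p under 0.05, 0 by DESeq2). For Mrc1 in other C1q macrophages, the unimmunized values of 48.1 and 31.7 CPM lay above the immunized values of 31.0 and 18.7, but the log2 difference of -0.66 ± 0.57 (SE) did not pass.

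The signalling partners of these receptors were followed as a list of 12 genes, all tested. In nonclassical monocyte-like cells 10 were higher and none lower (18.2% of all genes called), with a median log2 difference of 0.84 against 0.08 over all genes. They were led by Fcer1g (1.40), the adaptor chain of Clec4d, Clec4e and Clec4n, by Malt1 (1.25) and Plcg2 (1.16), which act below Syk, and by Ptpn6 (1.14), the phosphatase bound by inhibitory motifs. Classical monocyte-like cells had 6 higher (7.75% of all genes called), led by Fcer1g (1.15) and Prkcd (0.91), and moIFN-like cells 3 (5.38%), namely Fcer1g (1.05), Prkcd (0.98) and Ptpn6 (0.78). Inflammatory macrophage-like cells had 3 higher (11.5%), Malt1 (1.88), Card9 (0.95) and Prkcd (0.58).

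Some partners were lower in dendritic types. In cDC1-like cells 7 of the 12 were lower (25.2% of all genes called), led by Fcer1g (-2.43), Syk (-1.98), Ptpn6 (-1.49) and Prkcd (-1.39), and Inpp5d, a lipid phosphatase, was higher (1.27). In migratory DC-like cells, where 35.8% of all genes were called, 7 were lower, led by Vav1 (-1.48) and Ptpn6 (-1.28), and Malt1 was higher (2.07). The median was -1.02 in cDC1-like and -0.94 in migratory DC-like cells. TBM-like and moDC-like cells had none called, with medians of 0.23 and 0.21. Over the 7 types, Ptpn6 (0.45 ± 0.10, SE) and Tyrobp (0.38) rose with immunization (4.78% of all genes called), and none of the 12 was called within a single type. These averages, too, took the types of a mouse as independent.

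A second list held 18 other C-type lectin genes outside the Cd209 family, of which 13 passed the filter on low counts. In cDC1-like cells (25.2% of all genes called) 4 were higher, among them Cd207 (langerin) and Ly75 (DEC-205, an endocytic receptor of dendritic cells). Cd207 had 78.0 CPM there against 0.965 in the mean of the other types, and Ly75 39.2 against 11.4. Another 6 were lower, led by Clec4b1, Clec4a3 and Clec4a1. In migratory DC-like cells (35.8%) edgeR called 3 higher, Ly75, Cd207 and Clec2d, and 6 lower. Ly75 had 97.4 CPM there against 5.53 in the mean of the other types. Cd207 had 7.15 CPM against 8.05, a mean that includes the 78.0 CPM of cDC1-like cells. With 13 groups without a UMI, the size of its fitted fold depends on the added constant. The receptors Clec4a1 and Clec4a3, close relatives of Clec4a2, were both higher in nonclassical (1.86 and 2.09) and classical monocyte-like cells (1.54 and 1.68) on the log2 scale. Both were also higher in other C1q macrophage (1.02 and 1.24), moIFN-like (1.07 and 1.39), TBM-like (1.06 and 1.04) and moDC-like cells (0.94 and 0.94). None of the 13 was called for immunization within a type or over the types.

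Finally the genes most like each lectin were taken from 7702 genes by Pearson's r of log2(CPM + 1) over the 12 types, as a description. Mgl2 and Clec10a were among each other's 3 nearest genes (r = 0.91), and Mrc1 lay near Mgl2 (0.89) as well as Slc36a1 (0.92). Clec4a2 was nearest to Adgre1, which encodes F4/80 (0.94), and Clec12a to Lman2 (0.97). Clec4d was nearest to Saa3 (0.92), Clec4e to Gpr84 (0.93), Clec4n to Cox6b1 (0.93) and Clec9a to Gm43914 (0.95). Among the lectins Clec4d and Clec4e had r = 0.86 and Clec4n and Clec9a -0.71. The 12 points share mice and captures, and differ in depth.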

How the data were processed

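Cells were captured as single cells with 3′ mRNA, antibody and hashtag libraries. Per the submitters' processing notes and the methods, the authors mapped reads to mm10 with Cell Ranger 4.0.0, merged both captures with its aggr step, and counted antibody and hashtag tags with CITE-seq-count. All deposited values are raw UMI counts. The sources used here do not state whether that step equalized reads. A cell was assigned to a mouse when 1 hashtag held at least 80% of its hashtag counts, with at least 10 counts. Cells with over 25% mitochondrial UMIs and barcode sequences shared by both captures were left out. Types were gated on marker lists. The lectins and the lists were chosen with earlier results of these data known.

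UMI counts were summed per mouse and type (at least 10 cells, 23978 to 12813402 UMIs) and fitted with edgeR 4.0.16 (TMM, filterByExpr, quasi-likelihood test, 23 residual degrees of freedom, Benjamini-Hochberg adjustment), after a check on simulated counts. Replicates were 2 mice per condition. Libraries of different types from 1 mouse come from the same animal, but the main fit took them as independent. Their deviations correlated with a median r of 0.109 in immunized mice, where 37 of 66 pairs of types exceeded 0.1, up to 0.650. In unimmunized mice the median was 0.0219 and the highest r 0.115. The fit with the mouse as a block called 58 of the type differences in place of 51. Alternatives were DESeq2, limma on log2(CPM + 5), RLE size factors, HTODemux, other limits on cells, removal of likely doublets (Scrublet's own threshold called 0 cells), Leiden clusters, single captures and leaving out each mouse. Shares of cells were taken after thinning to 1000 or 2000 UMIs. All lectins with a row were named, and from the lists up to 4 called genes per direction with the largest log2 fold changes. Sequences came from GENCODE transcripts and RefSeq promoters on GRCm38, of which 8 of the 10 genes had one.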

Additional observations from a re-analysis of the deposited data

How the results depend on the processing

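Of 108 combinations of lectin and type, 51 were called, and the alternatives gave 45 to 67, or 39 to 62 without 1 mouse. The pairs of types had 15 calls of 36, and 9 with at least 20 cells per library, 8 in capture 1 alone and 8 in capture 2 alone (each with 3 of the 4 pairs), and 2 to 20 without 1 mouse; the lowest, without unimmunized replicate 1, left 1 pair. Immunization within types had 1 call of 63 (7 types), and 6 without the filter on low counts, 2 with likely doublets removed, 0 with DESeq2, 0 with limma, and 0 to 14 without 1 mouse, where 63 to 99 were tested. It had 0 with at least 20 cells, 0 in capture 1 alone and 0 in capture 2 alone, where 18 were tested in 2 types without migratory DC-like cells. Over the types it had 1 call, and 2 without the filter, 2 with HTODemux, 3 with limma at a minimum of 5 cells, 0 with RLE size factors, 0 with at most 10% mitochondrial UMIs, 0 with at least 20 cells, 0 with 1 more marker UMI, 0 in each capture alone, and 0 to 2 without 1 mouse. The test of a difference between types had 0 calls, 3 without the filter and 0 to 4 without 1 mouse. With a replicate block for the mouse, 58 type calls, 19 pair calls and 1 call within a type were made, and 0 over the types, where Clec4n was lost. The block was set within each condition, so its immunization differences referred to replicate 1 of each condition and do not test immunization over both mice. For the fits without the filter or without 1 mouse, the share of all genes called is not given here. Their counts thus do not set the lectins against other genes.

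Over all called results and alternatives, 1083 of 1263 values were called, 172 kept the direction without a call and 8 turned. Those 8 were Mrc1 in MSM-like cells (-1.54 without immunized replicate 1, to 4.62 without unimmunized replicate 1), Mgl2 in nonclassical monocyte-like cells (0.53 without unimmunized replicate 1, to -3.35 without unimmunized replicate 2), Clec4n in migratory DC-like cells in capture 2 alone (0.38), and, with Leiden clusters, Clec4n (-0.32), Clec4d (-1.21), Clec4e (-2.44) and Clec12a (-0.02) in inflammatory macrophage-like cells and Mrc1 between moDC-like and cDC2-like cells (-0.68). RLE size factors moved the median of all genes by -0.29 in Pla2g2d/Il22ra2 cells to 0.22 between TBM-like and MSM-like cells, and turned no call. The cause was not tested. Leaving out unimmunized replicate 1 also took TBM-like, moIFN-like, classical monocyte-like and moDC-like cells out of the mean of the other types. With Leiden clusters, inflammatory macrophage-like cells were compared over both conditions and not in immunized mice alone. Small unimmunized libraries and groups without a UMI, 36 of the 108 type comparisons, limit what can be said of low levels.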

Other observations

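With libraries of at least 5 cells, a limit set after the data were seen, immunization could also be tested in moIFN-like, TBM-like and classical monocyte-like cells. Clec4e in moIFN-like cells had 39.2 and 0 CPM in unimmunized mice (20 and 6 cells, where 0 allows up to 43.8 CPM), and 149 and 216 in immunized mice. The log2 difference was 2.85 ± 0.81 (SE) and was not called by edgeR (adjusted p = 0.28), while limma on log2(CPM + 5) gave 3.75 (adjusted p = 0.030, 0.443% of all genes called). In TBM-like cells Clec4e had 12.5 and 21.7 CPM in unimmunized mice (14 and 8 cells) and 88.2 and 94.7 in immunized mice, a difference of 2.66 ± 1.00 (SE) that neither edgeR (adjusted p = 0.50) nor limma (0.41) called. Clec4d in TBM-like cells had 6.24 and 0 CPM against 22.4 and 63.3, and was called by neither (adjusted p = 0.50 by edgeR and 0.19 by limma). Mrc1 in classical monocyte-like cells had a log2 difference of -1.93 ± 0.71 (SE), also not called (edgeR adjusted p = 0.51). Averaged over the types at this limit, Clec4n rose by 1.03 ± 0.23 on the log2 scale (SE, edgeR adjusted p = 0.0015), where 10.3% of all genes were called, and limma, with 7.74% called, also called Clec4d (0.99, adjusted p = 0.0054) and Clec4e (1.21, 0.0025). Both fits took the types of a mouse as independent, so these averaged p-values do not measure the spread between mice.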
